A study of Mus musculus with 60 samples.

Results

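The genes described here are 32 markers of brain blood vessels: 22 genes of endothelial cells, which line the vessels and form the blood-brain barrier, and 10 genes of mural cells, the pericytes and smooth muscle cells on the outer side of the vessel wall. They were taken as a fixed list of gene symbols, with no threshold on their values, and all 32 were found among the 35999 genes of the table. By role they were 5 junction genes, 5 receptors, 6 transporters, 6 surface and secreted proteins, 7 pericyte genes and 3 smooth muscle genes.

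Endothelial cells of the brain are sealed by tight junctions and carry glucose, lipids and hormones inward through dedicated transporters, while efflux pumps return foreign compounds to the blood. Their growth and stability depend on the angiopoietin and vascular endothelial growth factor receptors. Pericytes are embedded in the capillary basement membrane and are recruited by platelet-derived growth factor, and smooth muscle cells give arterioles their contractile coat.

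The study sorted microglia and astrocytes from mouse brains to follow gene expression over the lifespan. AD mice carried the APPswe/PS1ΔE9 transgenes (strain label APPswe/PS1-delta=E9), a pair of transgenes for mutant amyloid precursor protein and presenilin, and WT mice, C57BL/6 by the labels and C57BL/6 J by the methods, were littermates without them. All were male and 2, 4, 6, 9 or 12 months old, which gave 10 groups of microglia and 10 of astrocytes, with 3 samples per group by the labels. Mice were perfused and the meninges removed, microglia were gated on CD11b with low to intermediate CD45, and astrocytes on ACSA2. RNA was amplified from a small input by a full-length method that does not keep strand. The methods give 3 mice per group, the labels do not tie a sample to a mouse, and p-values measure only the spread between these libraries. Vessel cells were the target of neither sort, so the groups are a model of vessels only as far as vessel RNA came through these gates.

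The values are FPKM, fragments scaled to exon length and to library size, so levels of different genes can be set side by side. The table gives 1 mean per gene and group. Because these means carry 15 significant digits, the whole fragment numbers of the single libraries behind them could be worked out for most genes, and 58 libraries were recovered of the 60 in the labels. The AD 4-month and the WT 12-month microglia groups held 2 libraries each, and all other groups 3. Libraries are numbered here by their size and are not tied to the replicate numbers of the labels. Their scaled size, the FPKM denominator, was 13.06 to 20.32 M fragments in microglia and 17.8 to 22.83 M in astrocytes. Of the 640 member values, 575 were resolved into libraries, all 320 in microglia and 255 in astrocytes. The members of the highest level in astrocytes, among them Slc2a1 and Vtn in all 10 groups, had group means only and no test.

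In the groups labelled microglia the microglia markers summed to 10940 to 27790 FPKM, against 19.2 to 39.8 FPKM in the groups labelled astrocytes. The groups labelled astrocytes held astrocyte markers at 504.6 to 902.3 FPKM, against 33.03 to 410.6 FPKM in the groups labelled microglia. The astrocyte groups also held oligodendrocyte markers at 12230 to 20410 FPKM, so they were not astrocytes alone. The 22 endothelial genes together made up 867.8 to 4959 FPKM in the astrocyte groups, which was 0.233% to 1.361% of the total, and 53.2 to 814.7 FPKM in the microglia groups. The 10 mural genes summed to 1093 to 2250 FPKM in astrocyte groups and to 6.97 to 329.6 FPKM in microglia groups. In sorted bulk RNA, the number of vessel cells, the RNA per vessel cell and expression of these genes by other cells, the sorted glia among them, cannot be told apart. This holds for every result that follows.

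Promoter sequence was in the RefSeq table (GRCm38.p6) for 24 of the 32 genes, 17 endothelial and 7 mural, as windows of 300 bases around a RefSeq transcription start. In 22 of them the window held the start of the gene model behind the FPKM. The Egfl7 window lay 1069 bases from that start and the Abcb1a window 92986 bases from it. The letters AGGAAG, a core bound by ETS factors, which are well known activators of endothelial genes, were in 10 of the 17 endothelial windows and in 0 of the 7 mural windows on either strand, against 35.35% of 32851 promoters. The other ETS form searched, CCGGAA, was in 2 and 0 windows (14.9% of all promoters), GTAAACA, a FOX core, in 1 and 0 (3.65%), and TATAAA in 5 and 1 (13.62%). The CArG box, bound by serum response factor in smooth muscle genes, was searched only in its strict form, CCWWWWWWGG, where W is A or T. It was in 0 endothelial windows and 1 mural window, that of Myl9 (1.629%). Looser forms were not searched, so the lack of a match in Acta2 does not mean that it has no such box. Over the 15 endothelial windows that held the gene model start, AGGAAG was in 8 and GTAAACA in 0. A match describes the letters only. The windows of Tie1, Flt1 and Myl9 are shown as examples of windows with a match, so they do not stand for windows without one. The matched letters are in capitals, read 5′ to 3′ on the gene's strand. Tie1 is at chr4:118489800-118490099 on the minus strand with AGGAAG (read as CTTCCT on this strand), Flt1 at chr5:147725962-147726261 on the minus strand with AGGAAG and TATAAA, and Myl9 at chr2:156775214-156775513 on the plus strand with the CArG box.
Tie1: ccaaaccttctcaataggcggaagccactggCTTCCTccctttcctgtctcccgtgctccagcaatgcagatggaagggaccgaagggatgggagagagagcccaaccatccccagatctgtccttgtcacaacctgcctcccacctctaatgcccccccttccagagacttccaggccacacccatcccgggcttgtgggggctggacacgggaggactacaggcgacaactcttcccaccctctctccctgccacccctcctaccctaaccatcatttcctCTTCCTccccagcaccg
Flt1: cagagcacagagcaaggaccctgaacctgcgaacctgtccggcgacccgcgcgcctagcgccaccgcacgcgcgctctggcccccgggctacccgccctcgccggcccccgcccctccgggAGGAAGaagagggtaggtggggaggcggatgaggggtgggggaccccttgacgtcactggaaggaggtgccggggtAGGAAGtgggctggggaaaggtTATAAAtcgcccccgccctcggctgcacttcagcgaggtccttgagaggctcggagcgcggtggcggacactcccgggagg
Myl9: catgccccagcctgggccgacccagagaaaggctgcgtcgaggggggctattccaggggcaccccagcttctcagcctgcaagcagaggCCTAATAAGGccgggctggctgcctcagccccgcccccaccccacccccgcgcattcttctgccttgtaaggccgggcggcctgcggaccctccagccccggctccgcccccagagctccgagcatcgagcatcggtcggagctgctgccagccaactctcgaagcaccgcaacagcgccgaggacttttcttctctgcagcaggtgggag

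Nearly all members were far higher in the astrocyte than in the microglia groups. Over the 10 matched pairs of groups, the median log2 fold change of astrocytes over microglia was 4.71 across members. Vtn, vitronectin, which brain pericytes secrete, was 166.9-fold higher by its median over pairs, and Kcnj8, the potassium channel subunit of pericytes, 124.4-fold. Eng, endoglin, a co-receptor for transforming growth factor beta that macrophages also express, stood at a median log2 of 0.06 and was above 0 in 6 of 10 pairs. Abcg2, an efflux pump, stood at 0.39 and was above 0 in 7 of 10. For Eng and Abcg2 the microglia groups therefore gave about as much signal as the astrocyte groups.

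Within the astrocyte groups, the endothelial genes of the highest level were Ly6c1 (174.6 to 1308 FPKM), a surface antigen whose reads may be shared with its near copy Ly6c2, Ly6a (132.8 to 1081 FPKM) and Itm2a (162.0 to 1091 FPKM). The lowest of the endothelial genes was Vwf, von Willebrand factor, at 0.2589 to 1.224 FPKM. Tagln, an actin-binding protein of smooth muscle, had 0.1205 to 0.3551 FPKM. Tagln passed 0.69 FPKM in no library, and 67.86% of its exon bases overlap antisense genes, so its value is uncertain in libraries that do not keep strand.

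AD and WT microglia were compared at each age to see how expression differed with the transgenes. At 2 months the group means of AD microglia were far above those of WT microglia for most vessel genes, and 1 library carried this. Cldn5, claudin 5, the main tight junction protein of brain endothelium, had 71.9, 4.70 and 3.04 FPKM in AD microglia, against 3.19, 2.33 and 2.42 FPKM in WT microglia. Ly6c1 had 124.6, 8.17 and 4.72 FPKM in AD microglia, against 4.96, 3.11 and 3.83 FPKM in WT microglia. Acta2, smooth muscle actin, had 52.7, 1.10 and 2.00 FPKM in AD microglia, against 1.91, 1.48 and 0.175 FPKM in WT microglia. In each of these genes AD library 1 stood alone, and the other AD libraries lay near or among the WT libraries. AD 2-month library 1 was the highest of its group for 32 of 32 members, by a median of 10.75 times the next library.

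A gene was kept where a group compared reached 0.5 FPKM, and a fold change counted when it passed 0.5 on the log2 scale of scaled FPKM plus 0.1. By the group means at 2 months, 24 of 27 kept members passed this threshold, all higher in AD microglia, against 7.59% of all genes. The median log2 fold change was 2.23 over 21 endothelial and 2.48 over 6 mural genes, against −0.04 over all genes. limma on the library values, with adjustment over all genes, called 0 of 27 members (0.0161% of all genes called), and 0 had an unadjusted p under 0.05 (5.7% of all genes). Of the genes tested, 3 of 21 endothelial and 2 of 6 mural genes had all AD libraries above all WT libraries, against 4.66% of all genes. Without AD library 1 the medians fell to 0.11 and 0.33.

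At 4 months the AD microglia group held 2 libraries that differed even more. Cldn5 had 221.6 and 2.44 FPKM in AD microglia, against 5.64, 5.11 and 34.6 FPKM in WT microglia. Mfsd2a, the lipid transporter that keeps endothelial transcytosis low, had 18.2 and 0.408 FPKM in AD microglia, against 1.45, 0.838 and 2.87 FPKM in WT microglia. Higd1b, a pericyte marker, had 42.3 and 1.27 FPKM in AD microglia, against 2.02, 1.23 and 9.31 FPKM in WT microglia. Library 1 of the AD group and library 3 of the WT group were the high ones, and the groups overlapped in each gene. AD 4-month library 1 was the higher for 32 of 32 members, by a median of 46.07 times, and WT 4-month library 3 the highest for 31 of 32, by 4.66 times.

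The 4-month group means put 29 of 31 kept members past the threshold, all higher in AD microglia (17.7% of all genes), with medians of 2.48 over 22 endothelial and 2.35 over 9 mural genes. limma called 0 of 31 (0.00728% of all genes), with 0 at an unadjusted p under 0.05 (7.79% of all genes). Without AD library 1 the medians were −1.34 and −1.30, the opposite direction.

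**Figure D1:**
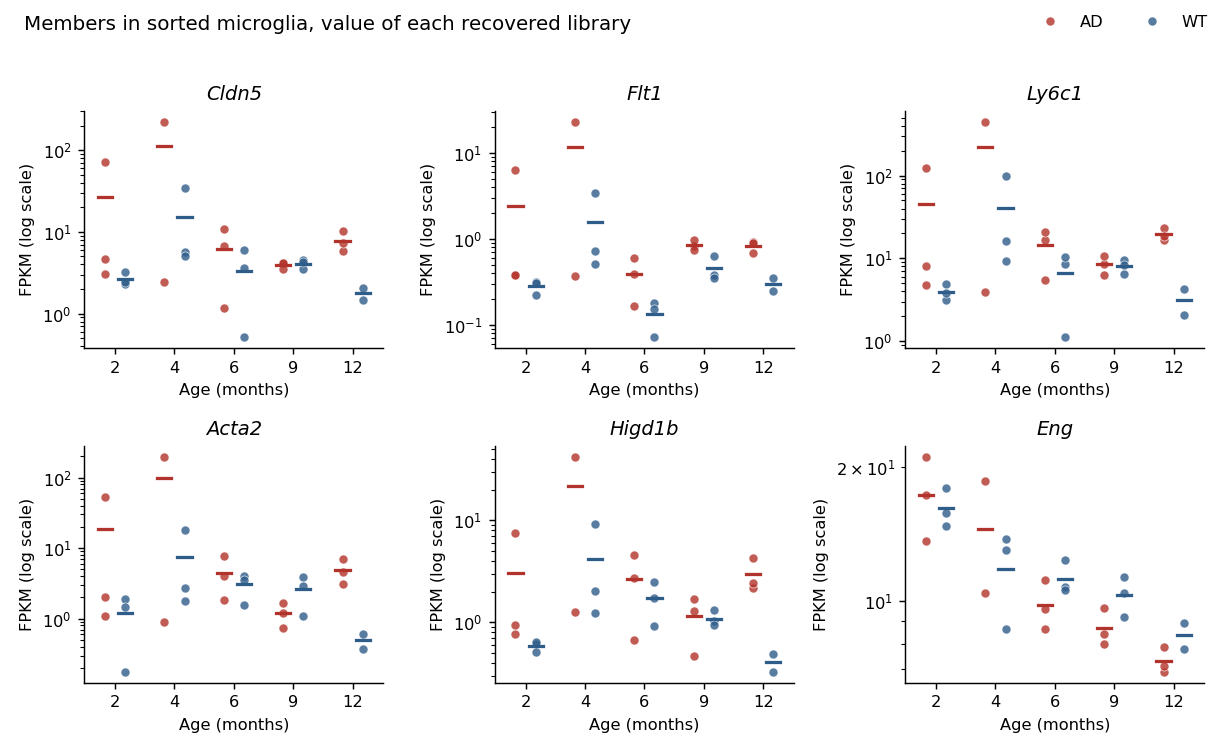
FPKM of vessel genes in single microglia libraries (dots) and in the deposited group means (bars), on a log axis, AD left of WT, ages from 2 to 12 months. AD 2-month library 1, with 71.9 FPKM of Cldn5, AD 4-month library 1, with 221.6 FPKM, and WT 4-month library 3, with 34.6 FPKM, stand above the other libraries of their groups.

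Markers of other cells were raised in the same libraries. Summed over the 22 endothelial members the AD 2-month libraries had 548, 83.5 and 84.4 FPKM, against 79.5, 64.2 and 70.7 FPKM in WT. Astrocyte markers (8 of 10 recovered) summed to 19.3, 3.42 and 2.57 FPKM in the AD libraries, against 5.44, 3.84 and 4.03 FPKM in WT, and vessel fibroblast markers to 7.69, 0.710 and 0.642 FPKM in AD. At 4 months the AD libraries had 1566 and 63.3 FPKM of endothelial members, 651 and 7.86 FPKM of mural members, 79.5 and 2.68 FPKM of astrocyte markers and 57.3 and 0.260 FPKM of choroid plexus markers (6 of 8 recovered). Over the recovered genes each of these lists was thus highest in the same AD library at its age. All 10 astrocyte markers summed to 178.4 FPKM in AD and 167.0 FPKM in WT microglia at 2 months by the group means. At 4 months they summed to 82.26 FPKM in AD and 410.6 FPKM in WT microglia, the opposite order to the recovered AD library. The largest part of these sums came from a marker with no library values. Their part in the differences at 2 and 4 months was not tested.

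At 6 months 11 of 20 kept members passed the fold threshold in microglia, all higher in AD (8.77% of all genes), with medians of 0.42 over 15 endothelial and 0.57 over 5 mural genes. limma called 0 of 20 (0.124% of all genes), with 4 at an unadjusted p under 0.05 (13.6% of all genes). Slc2a1, the glucose transporter GLUT1 of the barrier, had 22.2, 24.8 and 23.0 FPKM in AD microglia, against 18.2, 18.9 and 19.9 FPKM in WT microglia. Its libraries did not overlap, and its limma log2 difference was 0.30 ± 0.07 (SE), with an adjusted p of 0.226. Red blood cell markers summed to 91.7, 226 and 71.9 FPKM in the same AD libraries, against 27.2, 10.9 and 6.78 FPKM in WT, and their part was not tested. The mural median was −0.05 without AD 6-month library 3 and 0.24 without WT 6-month library 1. The endothelial median was past the threshold without WT library 2 (0.65), WT library 3 (0.76) or AD library 2 (0.55).

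At 9 months 7 of 22 kept members passed the fold threshold in microglia, against 19.7% of all genes. By the means Flt1, an endothelial growth factor receptor, Egfl7, a secreted endothelial factor, and Kcnj8 were past it upward in AD microglia, and Pecam1, Rgs5, Acta2 and Myl9 downward. limma called 0 of 22 (0.86% of all genes), with 6 at an unadjusted p under 0.05 (18% of all genes). Pecam1, an adhesion molecule of endothelium and leukocytes, had 1.38, 1.16 and 0.860 FPKM in AD microglia, against 1.61, 2.63 and 1.84 FPKM in WT microglia. Its libraries did not overlap, and its limma log2 difference was −0.82 ± 0.26 (SE), with an adjusted p of 0.190.

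At 12 months vessel genes of both kinds were higher in AD microglia, and no single library carried this. Cldn5 had 5.89, 10.2 and 7.26 FPKM in AD microglia, against 1.47 and 2.07 FPKM in WT microglia (limma log2 difference 2.08 ± 0.28 SE, adjusted p = 0.00722). Ly6c1 had 16.9, 23.3 and 18.7 FPKM in AD microglia, against 4.28 and 2.10 FPKM in WT microglia (2.67 ± 0.32 SE, adjusted p = 0.00622). Every AD library exceeded both WT libraries in these genes. Slc2a1 had 29.8, 29.9 and 34.7 FPKM in AD microglia, against 16.6 and 18.6 FPKM in WT microglia (0.85 ± 0.12 SE, adjusted p = 0.00805). Egfl7, with 11.2% of its exon bases under overlapping genes, had 1.43, 1.29 and 0.944 FPKM in AD microglia, against 0.189 and 0.323 FPKM in WT microglia (1.91 ± 0.32 SE, adjusted p = 0.0108). The AD libraries again lay above both WT libraries.

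Of 21 kept members, 16 passed the fold threshold at 12 months, all higher in AD microglia (25.7% of all genes), with medians of 1.10 over 16 endothelial and 2.47 over 5 mural genes, against 0.03 over all genes. limma called 12 of 21 higher (15.9% of all genes): 1 of 4 junction genes, 1 of 3 receptors, 3 of 5 transporters, 4 of 4 surface and secreted genes, 1 of 3 pericyte genes and 2 of 2 smooth muscle genes. Besides those above these were Flt1, the thyroid hormone transporter Slco1c1, Abcg2, Ly6a, Itm2a, Higd1b, Acta2 and Myl9. Ocln, Esam, Pecam1, Kdr, Eng, Slco1a4, Mfsd2a, Vtn and Rgs5 were not called. Of the genes tested, 11 of 16 endothelial and 4 of 5 mural genes had all AD libraries above both WT libraries, against 31.0% of all genes. The WT group held 2 libraries, so a fit without 1 of them leaves 1 WT library and cannot show whether the calls hold. The medians stayed past the threshold in all 5 leave-outs. They were 0.9986 to 1.2045 over endothelial and 2.0208 to 2.7971 over mural genes.

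Mural genes were among the larger differences at 12 months. Acta2 had 3.13, 4.55 and 6.92 FPKM in AD microglia, against 0.614 and 0.371 FPKM in WT microglia (limma log2 difference 3.04 ± 0.39 SE, adjusted p = 0.00678). Myl9, the regulatory light chain of smooth muscle myosin, had 4.91, 9.18 and 10.7 FPKM in AD microglia, against 1.88 and 0.996 FPKM in WT microglia (2.45 ± 0.42 SE, adjusted p = 0.0119). Higd1b had 2.17, 4.28 and 2.43 FPKM in AD microglia, against 0.491 and 0.325 FPKM in WT microglia (2.56 ± 0.35 SE, adjusted p = 0.00742). No AD library overlapped the WT libraries in these genes, yet the levels were far under those of the astrocyte groups, where Acta2 was between 52.6 and 161.1 FPKM. Pdgfrb, the pericyte receptor for platelet-derived growth factor, was not kept, with 0.216, 0.264 and 0.157 FPKM in AD microglia, against 0.332 and 0.131 FPKM in WT microglia.

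Markers of other cells were also higher in many of these AD libraries. Border macrophage markers summed to 6.37, 18.5 and 28.3 FPKM in AD microglia at 12 months, against 8.34 and 6.397 FPKM in WT microglia. Red blood cell markers summed to 129, 50.8 and 8.15 FPKM in AD, against 17.95 and 0.251 FPKM in WT, and choroid plexus markers to 7.96, 9.05 and 0.847 FPKM in AD, against 0.504 and 0.343 FPKM in WT. Oligodendrocyte markers (7 of 8 recovered) were at 57.3, 61.0 and 41.7 FPKM in AD, against 38.7 and 37.3 FPKM in WT, and neuron markers at 0.879, 1.22 and 0.851 FPKM in AD, against 0.285 and 0.316 FPKM in WT. For oligodendrocyte, neuron and choroid plexus markers every AD library was above both WT libraries. Astrocyte markers (8 of 10 recovered) were at 8.38, 7.58 and 4.06 FPKM in AD, against 3.37 and 4.999 FPKM in WT, and overlapped. By the group means, however, all 10 astrocyte markers summed to 134.3 FPKM in AD, against 33.03 FPKM in WT. Most of that sum came from a marker with no library values, at 126.7 FPKM in AD and 28.22 FPKM in WT. The part of these cells in the difference of the vessel genes was not tested. Among further vessel genes counted from fixed lists, limma called 8 of 14 other endothelial genes, 1 of 3 other mural genes and 1 of 11 vessel signalling receptors higher in AD microglia (15.9% of all genes), and 4 of the 11 receptors lower (16.6%).

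Later ages were each set against 2 months in microglia of the same genotype, so the 4 comparisons of a genotype share their 2-month libraries. Because the AD 2-month, AD 4-month and WT 4-month means were carried by 1 library, only the limma calls are given. In AD microglia limma called 0 of 31 members at 4 months (0.0% of all genes), with 0 at an unadjusted p under 0.05 (14.9% of all genes). It called 1 of 27 at 6 months (27.4%), 1 of 28 at 9 months (13.6%) and 2 of 27 at 12 months (30.3%), and the gene in common was Eng, which was lower. In WT microglia limma called 0 of 26 at 4 months (0.511%), 0 of 18 at 9 months (0.543%) and 0 of 18 at 12 months (0.246%), with 7, 6 and 4 members at an unadjusted p under 0.05, against 19.5%, 20% and 19.7% of all genes. At 6 months it called 4 of 18 (39.8%), with Ocln, occludin of the tight junction, Higd1b and Myl9 higher and Eng lower.

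Eng was lower at later ages in microglia of both genotypes. In AD microglia it had 21.1, 13.6 and 17.3 FPKM at 2 months, 18.6 and 10.4 at 4 months, 9.57, 11.1 and 8.64 at 6 months, 7.99, 8.40 and 9.62 at 9 months, and 6.90, 7.86 and 7.14 at 12 months. In WT microglia it had 15.8, 14.7 and 17.9 FPKM at 2 months, 8.63, 13.74 and 12.99 at 4 months, 10.7, 12.4 and 10.6 at 6 months, 10.4, 11.3 and 9.17 at 9 months, and 7.78 and 8.92 at 12 months. From 6 months on, every library was below every 2-month library of its genotype. In AD microglia the limma log2 difference from 2 months was −0.80 ± 0.17 SE at 6 months (adjusted p = 0.0162), −1.03 ± 0.16 SE at 9 months (adjusted p = 0.016) and −1.20 ± 0.16 SE at 12 months (adjusted p = 0.00309). Pecam1 was also lower in AD microglia at 12 months (−0.94 ± 0.29 SE, adjusted p = 0.0417).

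Single libraries moved these calls. The shares of all genes called in these refits are not given, so the counts cannot be set against other genes. Without AD 2-month library 1, limma called 2 members at 6 months, 3 at 9 months and 7 at 12 months in AD microglia, the 7 being Eng lower and Acta2, Flt1, Higd1b, Ly6c1, Myl9 and Slc2a1 higher. Without AD 2-month library 3 it called 0 at 6 and 9 months, and without AD 9-month library 2 it called 0 at 9 months. At 12 months it called 1 without any other library of the AD 2-month or AD 12-month group. In WT microglia at 6 months it called 1 without WT 2-month library 3, 2 without WT 6-month library 2 and 0 without WT 6-month library 3.

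In the astrocyte groups the later ages were set against 2 months in the same way, again with shared 2-month libraries. Most tested endothelial genes were lower from 6 months on in WT astrocytes. Of the tested pericyte genes, 4 were higher at 9 months and 2, Kcnj8 and Higd1b, at 12 months. Tie1, an endothelial receptor tyrosine kinase, had 14.4, 5.87 and 5.37 FPKM in AD astrocytes at 2 months, 6.17, 8.55 and 6.26 at 4 months, 3.21, 1.65 and 1.91 at 6 months, 3.58, 4.64 and 2.65 at 9 months, and 0.870, 2.11 and 1.71 at 12 months. In WT astrocytes it had 13.8, 17.2 and 10.4 FPKM at 2 months, 11.1, 9.14 and 6.39 at 4 months, 2.42, 1.90 and 1.03 at 6 months, 4.54, 3.14 and 3.58 at 9 months, and 3.74, 3.40 and 3.44 at 12 months. All WT libraries of 6 to 12 months lay below all WT libraries of 2 and 4 months. In AD astrocytes the 12-month libraries were below every library of 2 and 4 months.

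Markers of other cells moved across the same ages. By the group means at 2, 4, 6, 9 and 12 months, oligodendrocyte markers summed to 19910, 17170, 17440, 12620 and 14920 FPKM in AD astrocytes and to 20410, 15720, 12230, 16450 and 17520 FPKM in WT astrocytes. Choroid plexus markers summed to 660.0, 666.3, 3051, 171.0 and 1857 FPKM in AD astrocytes and to 485.7, 2011, 2666, 346.9 and 747.2 FPKM in WT astrocytes. Astrocyte markers summed to 677.1, 560.3, 530.2, 550.0 and 543.6 FPKM in AD and to 505.8, 670.6, 902.3, 642.0 and 504.6 FPKM in WT. Red blood cell markers summed to 236.8, 87.0, 309.3, 63.2 and 272.6 FPKM in AD and to 269.7, 100.5, 96.7, 74.9 and 350.7 FPKM in WT. Choroid plexus markers were highest at 6 months in both genotypes, and in WT astrocytes oligodendrocyte markers were lowest and astrocyte markers highest at that age. Their part in the age differences that follow was not tested.

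**Figure D2:**
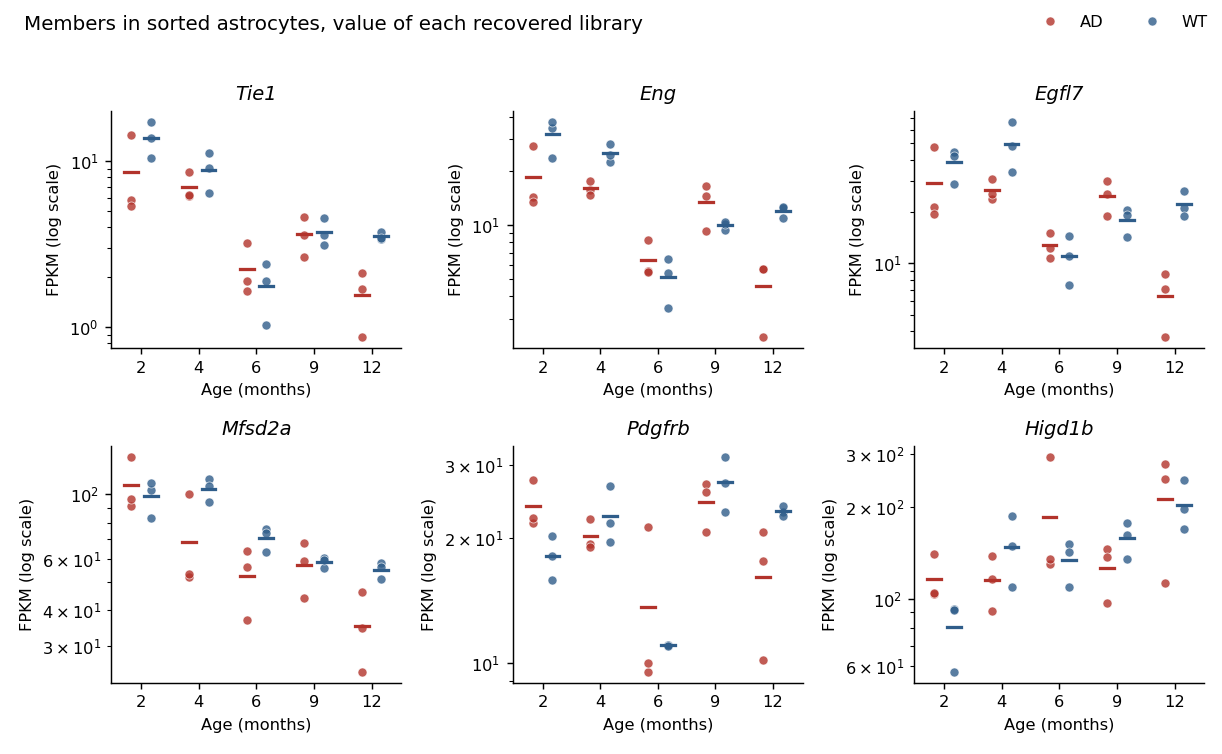
FPKM of vessel genes in single libraries of the astrocyte groups (dots) and in the deposited group means (bars), on a log axis, AD left of WT, ages from 2 to 12 months. Tie1 is at 0.870 to 2.11 FPKM in the AD 12-month libraries and at 3.40 to 3.74 FPKM in the WT 12-month libraries.

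At 4 months against 2 in WT astrocytes 3 of 31 kept members passed the fold threshold (21.2% of all genes), and limma called 0 of 21 (2.93%), with 2 at an unadjusted p under 0.05 (22.4% of all genes). At 6 months 24 of 31 were past it downward (26.2% of all genes), with a median of −1.96 over 22 endothelial genes, of which 20 passed, and −0.47 over 9 mural genes. limma called 16 of 22 lower (24.0% of all genes) and 1 higher (23.9%). The lower ones were 13 of 14 endothelial genes, all but Mfsd2a, and the pericyte genes Pdgfrb, Abcc9, a potassium channel subunit, and Cspg4, the NG2 proteoglycan. The paper uses Cspg4 as a marker of oligodendrocyte precursors, so its signal need not come from pericytes. Other markers on the precursor list summed to 495.1 FPKM at 6 months and 682.8 FPKM at 2 months in WT astrocytes by the group means. The highest gene of that list alone was at 344.6 and 485.9 FPKM, so the sum mainly follows that gene. The part of precursors in the Cspg4 values, here and in the other astrocyte comparisons, was not tested. Cdh5, vascular endothelial cadherin, had 1.16, 1.30 and 0.581 FPKM at 6 months, against 9.92, 11.6 and 7.27 FPKM at 2 months (limma log2 difference −3.14 ± 0.30 SE, adjusted p = 0.000215). Cspg4 had 1.63, 1.48 and 1.33 FPKM at 6 months, against 4.42, 4.94 and 4.30 FPKM at 2 months (−1.54 ± 0.11 SE, adjusted p = 8.92e-05). The 6-month and 2-month libraries did not overlap in either gene. Higd1b was the 1 member higher at 6 months (0.79 ± 0.22 SE, adjusted p = 0.0167), so at this age pericyte genes went both ways. Over the recovered genes, the mural median was −0.71 without WT 2-month library 3 or WT 6-month library 1 and −0.50 without WT 6-month library 2.

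At 9 months the endothelial and pericyte genes of WT astrocytes parted. By the means, 22 of 22 endothelial genes and Acta2 were past the threshold downward (12.1% of all genes) and 7 of 9 mural genes upward (12.1%), with medians of −1.52 and 0.66. limma called 14 of 14 endothelial genes lower (6.28% of all genes) and 4 of 7 mural genes higher (5.3%). Pecam1 had 4.24, 3.92 and 4.09 FPKM at 9 months, against 15.7, 17.1 and 11 FPKM at 2 months (limma log2 difference −1.81 ± 0.17 SE, adjusted p = 0.00502). Kdr, the main receptor of vascular endothelial growth factor, had 5.57, 4.48 and 8.07 FPKM at 9 months, against 23.3, 15.9 and 12.2 FPKM at 2 months (−1.50 ± 0.29 SE, adjusted p = 0.0207). Mfsd2a had the smallest difference of the 14 (−0.76 ± 0.12 SE, adjusted p = 0.0119). No 9-month library reached a 2-month library in any of these genes.

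The 4 mural genes called higher at 9 months were all pericyte genes. Pdgfrb had 27.2, 31.5 and 23.2 FPKM at 9 months, against 18.1, 20.2 and 15.8 FPKM at 2 months in WT astrocytes (limma log2 difference 0.57 ± 0.14 SE, adjusted p = 0.0377). Kcnj8 had 65.4, 81.1 and 61.8 FPKM at 9 months, against 48.6, 32.1 and 29.8 FPKM at 2 months (0.92 ± 0.20 SE, adjusted p = 0.0295). Higd1b had 162, 178 and 135 FPKM at 9 months, against 92.3, 91.7 and 57.3 FPKM at 2 months (0.98 ± 0.21 SE, adjusted p = 0.0263). Every 9-month library was above every 2-month library in these genes, and Abcc9 was called too (0.65 ± 0.15 SE, adjusted p = 0.0333). The group means of Vtn were 1368 FPKM at 9 months, against 579.2 FPKM at 2 months, with no test. limma called 10 members at 9 months without WT 2-month library 2, and 10 without WT 9-month library 2. Over the recovered genes, the mural median was 0.47 without WT 2-month library 3 and 0.50 without WT 9-month library 2.

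At 12 months against 2 in WT astrocytes, 22 of 22 endothelial genes were past the threshold downward (14.2% of all genes) and 5 of 9 mural genes upward (16.2%), with medians of −1.35 and 0.66. limma called 13 of 14 endothelial genes lower (8.02% of all genes), all but Vwf, and 3 of 7 mural genes higher (8.18%). Tie1 gave a limma log2 difference of −1.92 ± 0.18 SE (adjusted p = 0.00314). Higd1b had 246, 169 and 197 FPKM at 12 months, against 92.3, 91.7 and 57.3 FPKM at 2 months (1.35 ± 0.23 SE, adjusted p = 0.011). Kcnj8 (0.71 ± 0.19 SE, adjusted p = 0.0413) and Myl9 (0.95 ± 0.25 SE, adjusted p = 0.0394) were the other mural genes called. Over the recovered mural genes alone the median was 0.41, and it was 0.35 to 0.47 when any 1 of the WT 2-month and 12-month libraries was left out.

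In AD astrocytes, calls among the endothelial genes were mainly at 6 and 12 months. At 4 months against 2, 7 of 31 members passed, all downward (20.3% of all genes in either direction), and limma called 0 of 22 (0.0647%), with 4 at an unadjusted p under 0.05 (17.1% of all genes). At 6 months 23 of 31 were past the threshold downward (17.9% of all genes), and limma called 7 of 21 lower (7.7%): Cdh5, Tie1, Kdr, Eng, the efflux pump gene Abcb1a, Mfsd2a and Cspg4. The 6-month count was 0 without AD 2-month library 2 or AD 6-month library 2, 1 without AD 2-month library 3 or AD 6-month library 3, and 11 without AD 6-month library 1.

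At 9 months against 2 in AD astrocytes 19 of 31 were past the threshold downward (10.2% of all genes), and limma called 1 of 22 (2.57% of all genes lower), with 7 at an unadjusted p under 0.05 (28.7% of all genes). That was Mfsd2a, with 68.2, 58.8 and 43.9 FPKM at 9 months, against 135, 91.5 and 96.5 FPKM at 2 months (limma log2 difference −0.93 ± 0.20 SE, adjusted p = 0.0442). Its 9-month libraries were below all 2-month libraries. The count stayed at 1 without AD 2-month library 1 and was 0 without any other library of these groups. The endothelial median, −0.86 in all, was −0.37 without AD 2-month library 1.

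At 12 months against 2 in AD astrocytes, 25 of 31 kept members were past the threshold downward (18.1% of all genes), which were 22 of 22 endothelial genes with a median of −1.98 and 3 mural genes. limma called 13 of 15 endothelial genes lower (10.8% of all genes), all but Emcn and Vwf, and 0 of 6 mural genes, with 1 mural gene at an unadjusted p under 0.05 (43.2% of all genes). Mfsd2a had 34.7, 24.4 and 46.2 FPKM at 12 months, against 135, 91.5 and 96.5 FPKM at 2 months (limma log2 difference −1.63 ± 0.25 SE, adjusted p = 0.00737). Kdr had 1.73, 3.08 and 2.27 FPKM at 12 months, against 18.9, 7.66 and 7.73 FPKM at 2 months (−2.12 ± 0.38 SE, adjusted p = 0.0111). The 12-month libraries were below all 2-month libraries in both genes. Higd1b had 113, 278 and 248 FPKM at 12 months, against 140.3, 103 and 105 FPKM at 2 months, and its groups overlapped (0.80 ± 0.35 SE, adjusted p = 0.127). Without AD 2-month library 2 limma called 8 members, and without AD 12-month library 3 it called 7. The mural median, 0.29 in all, was −0.55 over the recovered genes without AD 12-month library 2.

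AD 2-month library 1 was the highest of its astrocyte group for 14 of 15 resolved endothelial genes, by a median of 2.12 times the next library, so the 2-month starting level of AD astrocytes was uneven. Whether the later change differed between genotypes was tested directly with limma. At 12 against 2 months 0 of 20 members had a called difference between AD and WT astrocytes (1.67% of all genes), with 5 at an unadjusted p under 0.05 (20.6% of all genes) and a smallest adjusted p of 0.0866. At 6 against 2 months it was 0 of 20 in limma (6.16% of all genes), with 8 at an unadjusted p under 0.05 (25.9% of all genes) and a smallest adjusted p of 0.105. A difference between the genotypes in the change from 2 months was therefore not detectable here.

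The ratio of mural to endothelial signal, from the 7 mural and 14 endothelial genes resolved in every astrocyte group, puts both changes in 1 number per library. In AD astrocytes it was 0.797, 0.945 and 0.995 at 2 months, 0.892, 0.941 and 0.893 at 4 months, 3.14, 1.96 and 2.49 at 6 months, 1.34, 1.38 and 1.63 at 9 months, and 4.13, 4.33 and 3.82 at 12 months. In WT astrocytes it was 0.616, 0.596 and 0.491 at 2 months, 0.579 to 0.886 at 4 months, 1.83, 1.58 and 1.59 at 6 months, 1.70, 2.08 and 1.51 at 9 months, and 2.05, 1.90 and 1.90 at 12 months. All libraries of 6 months and older had a higher ratio than all libraries of 2 and 4 months, and at 12 months the AD libraries all lay above the WT libraries. The resolved genes leave out abundant members such as Cldn5, Ly6c1, Ly6a, Itm2a, Slc2a1 and Vtn. The resolved mural sum was mostly Higd1b and Acta2, with group means of 213.0 and 141.0 FPKM in AD 12-month astrocytes. Kcnj8 was at 65.75 FPKM there, while Pdgfrb, Abcc9 and Cspg4, at 16.13, 5.256 and 2.753 FPKM, added little. On the mural side the ratio thus mainly follows Higd1b and Acta2. Over the group means of all 32 members the ratio was lower, at 0.4815, 0.5684, 1.142, 1.043 and 2.338 in AD and 0.2523, 0.2989, 0.9777, 1.400 and 1.264 in WT astrocytes from 2 to 12 months, and every group of 6 months and older was again above those of 2 and 4 months. The sum of the resolved endothelial genes at 12 months was 75.7, 120.4 and 130.8 FPKM in AD astrocytes, against 219, 194 and 193 FPKM in WT astrocytes. The mural sum overlapped, with 312, 521 and 499 FPKM in AD astrocytes, against 449.8, 369 and 366 FPKM in WT astrocytes.

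**Figure D3:**
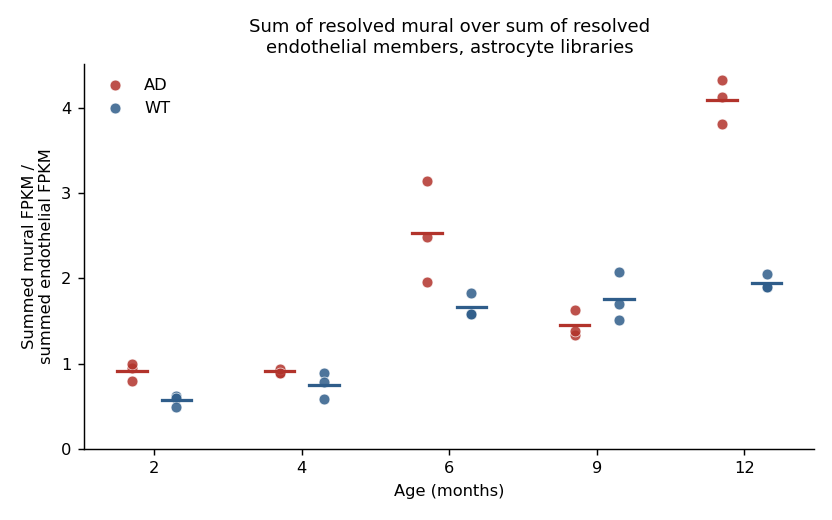
Summed FPKM of the resolved mural genes over that of the resolved endothelial genes, 1 dot per astrocyte library with the group mean as a line, AD left of WT, ages from 2 to 12 months. The ratio is 3.82 to 4.33 in AD and 1.90 to 2.05 in WT libraries at 12 months.

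Further vessel genes were counted from fixed lists in the same comparisons. At 9 months against 2 in WT astrocytes limma called 24 of 28 other endothelial genes lower (6.28% of all genes), 6 higher (5.3%) and 2 lower of 15 other mural genes, 4 of 7 junction scaffold genes lower and 6 of 15 vessel signalling receptors lower. Among 12 vessel signalling ligands 2 were higher and 1 lower. At 12 months it called 21 of 28 other endothelial genes lower (8.02% of all genes), and 5 higher (8.18%) and 1 lower of 15 other mural genes in WT astrocytes. In AD astrocytes at 12 months it called 19 of 28 other endothelial genes lower (10.8% of all genes) and 1 of 16 other mural genes higher (10.8%). Vessel fibroblast genes went both ways, with 1 higher and 3 lower of 7 at 9 months in WT astrocytes.

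AD and WT astrocytes were then compared at each age. At 2 months 14 of 22 endothelial genes were past the threshold downward in AD astrocytes (5.96% of all genes), with a median of −0.56. The pericyte genes Kcnj8, Rgs5 and Higd1b, 3 of 9 mural genes, were past it upward (6.18%), with a mural median of 0.38. limma called 0 of 21 members (0.0% of all genes), with 6 at an unadjusted p under 0.05 (9.28% of all genes). Eng had 27.5, 14.3 and 13.45 FPKM in AD astrocytes, against 34.7, 37.3 and 23.5 FPKM in WT astrocytes. AD library 1 overlapped WT and the other AD libraries lay below it. Over the recovered genes, the endothelial median was −0.47 without AD library 2 and −0.44 without AD library 3.

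At 4 months 20 of 22 endothelial genes and Acta2 were past the threshold downward in AD astrocytes (8.95% of all genes), with an endothelial median of −0.90. limma called 0 of 21 members (0.0143% of all genes), with 13 at an unadjusted p under 0.05 (14% of all genes), 12 of them endothelial, and a smallest adjusted p of 0.153. Abcg2 had 10.1, 13.7 and 12.0 FPKM in AD astrocytes, against 24.3, 25.0 and 17.98 FPKM in WT astrocytes (limma log2 difference −0.95 ± 0.17 SE, adjusted p = 0.153). Pecam1 had 5.75, 7.53 and 5.73 FPKM in AD astrocytes, against 14.7, 13.8 and 9.76 FPKM in WT astrocytes (−1.03 ± 0.19 SE, adjusted p = 0.153). Eng had 15.7, 17.6 and 14.6 FPKM in AD astrocytes, against 28.1, 22.4 and 24.6 FPKM in WT astrocytes (−0.69 ± 0.14 SE, adjusted p = 0.161). The libraries did not overlap in these genes, and in all 9 of 14 tested endothelial genes had every AD library below every WT library, against 11.4% of all genes. Choroid plexus markers were also lower, at 666.3 FPKM in AD astrocytes, against 2011 FPKM in WT astrocytes by the group means, and their part was not tested.

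At 6 months 12 of 31 members passed the fold threshold (20.8% of all genes), 11 upward in AD astrocytes and Slco1c1 downward. limma called 0 of 25 (0.172%), with 3 at an unadjusted p under 0.05 (25.9% of all genes), and it called 2, Acta2 and Ly6a, without AD 6-month library 1. Acta2 had 227, 128 and 129 FPKM in AD astrocytes, against 93.1, 56.5 and 50.1 FPKM in WT astrocytes, and the libraries did not overlap. The endothelial median was 0.30, and 0.57 without WT library 1. The mural median was 0.42, and over the recovered genes 0.56 without AD library 2 and 0.54 without AD library 3. At 9 months 6 of 31 passed (14% of all genes), with Flt1 and Vwf upward in AD astrocytes and Itm2a, Vtn, Rgs5 and Myl9 downward. limma called 0 of 25 at 9 months (0.737%), with 2 at an unadjusted p under 0.05 (23.3% of all genes).

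At 12 months endothelial genes were lower in AD astrocytes, with all receptors among them. Kdr had 1.73, 3.08 and 2.27 FPKM in AD astrocytes, against 6.79, 4.92 and 6.04 FPKM in WT astrocytes (limma log2 difference −1.31 ± 0.23 SE, adjusted p = 0.0173). Flt1 had 3.23, 10.1 and 8.81 FPKM in AD astrocytes, against 27.7, 21.2 and 20.8 FPKM in WT astrocytes (−1.78 ± 0.42 SE, adjusted p = 0.0324). Eng had 2.37, 5.66 and 5.69 FPKM in AD astrocytes, against 12.4, 10.9 and 12.5 FPKM in WT astrocytes (−1.47 ± 0.33 SE, adjusted p = 0.0306). AD library 1 was the lowest in each of them, and no AD library reached a WT library. Egfl7 had 3.68, 8.59 and 7.06 FPKM in AD astrocytes, against 26.3, 20.9 and 18.9 FPKM in WT astrocytes (−1.82 ± 0.31 SE, adjusted p = 0.0171). Abcb1a, the P-glycoprotein gene whose reads may be shared with its near copy Abcb1b, had 1.34, 3.49 and 3.30 FPKM in AD astrocytes, against 9.53, 8.64 and 7.10 FPKM in WT astrocytes (−1.70 ± 0.36 SE, adjusted p = 0.0257). The groups did not overlap in these genes either.

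Of 31 kept members 20 were past the threshold downward at 12 months (16.5% of all genes): 17 of 22 endothelial genes, with a median of −1.11, and Pdgfrb, Abcc9 and Cspg4. limma called 9 of 18 endothelial genes lower (8.06% of all genes). These were 1 of 4 junction genes (Cdh5), 5 of 5 receptors (Tie1, the angiopoietin receptor Tek, Flt1, Kdr and Eng), 1 of 5 transporters (Abcb1a) and 2 of 4 surface and secreted genes (Egfl7 and Vwf). limma called 0 of 6 mural genes, with 2 at an unadjusted p under 0.05 (37.5% of all genes). The transporter Slco1c1 had 38.4, 40.6 and 49.1 FPKM in AD astrocytes, against 37.7, 49.2 and 57.8 FPKM in WT astrocytes, and overlapped. Acta2 had 155.7, 106.5 and 160.9 FPKM in AD astrocytes, against 109.4, 105.2 and 68.5 FPKM in WT astrocytes, and its groups overlapped (0.59 ± 0.23 SE, adjusted p = 0.112). In all, 13 of 18 endothelial and 2 of 6 mural genes tested had all AD libraries below all WT libraries, against 22.8% of all genes.

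These 12-month calls changed with single libraries, while the endothelial median kept its sign, at −1.42 to −0.81 over the 6 leave-outs. limma called 2 members without WT library 1, 0 without WT library 2, 1 without WT library 3 and 2 without AD library 3. The mural median, −0.35 in all, was −0.62 without AD library 2. Red blood cell markers summed to 16.5, 224 and 578 FPKM in AD astrocytes, against 219, 221 and 612 FPKM in WT astrocytes. Choroid plexus markers (6 of 8 recovered) summed to 15.8, 17.4 and 12.1 FPKM in AD, against 7.22, 11.54 and 5.34 FPKM in WT (group means of all 8, 1857 in AD, against 747.2 in WT), and microglia markers to 32.6, 33.4 and 36.9 FPKM in AD, against 17.4, 30.0 and 23.4 FPKM in WT. Their part in the difference was not tested. Of the further lists limma called 10 of 28 other endothelial genes, 3 of 13 vessel signalling receptors and 5 of 12 ligands lower in AD astrocytes (8.06% of all genes), and 1 of 16 other mural genes and 1 of the 12 ligands higher (6.88%).

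The AD effect at 12 months was set against itself in the 2 cell sorts, and the difference was tested with limma. Of 24 members tested, 12 had a called difference between the effect in astrocytes and that in microglia (9.26% of all genes), all negative, and 19 had an unadjusted p under 0.05 (28.1% of all genes). They were Esam, Tie1, Tek, Flt1, Kdr, Slco1c1, Abcb1a, Ly6a, Egfl7, Vwf, Higd1b and Acta2. A gene was tested here where any group compared reached 0.5 FPKM. Tie1, Tek, Abcb1a and Vwf reached it in astrocytes only. In 12-month microglia they were at 0.0647, 0.0692, 0.0919 and 0.0565 FPKM in WT. In AD microglia they were at 0.210, 0.387, 0.301 and 0.142 FPKM. These values are under the minimum and near the pseudocount of 0.1, so the differences called for these genes are uncertain. Flt1 had a limma log2 difference of −1.78 in astrocytes and of 1.25 in microglia, Kdr had −1.31 and −0.07, and Acta2 had 0.59 and 3.04, so the members called did not share 1 pair of signs. The count was 7 without AD 12-month microglia library 2 and 7 without WT 12-month astrocyte library 3. The shares of all genes called in these refits are not given. Without a WT 12-month microglia library that group holds 1 library, so such a fit cannot show whether the calls hold. The sort and the cell type cannot be told apart in this comparison.

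**Figure D4:**
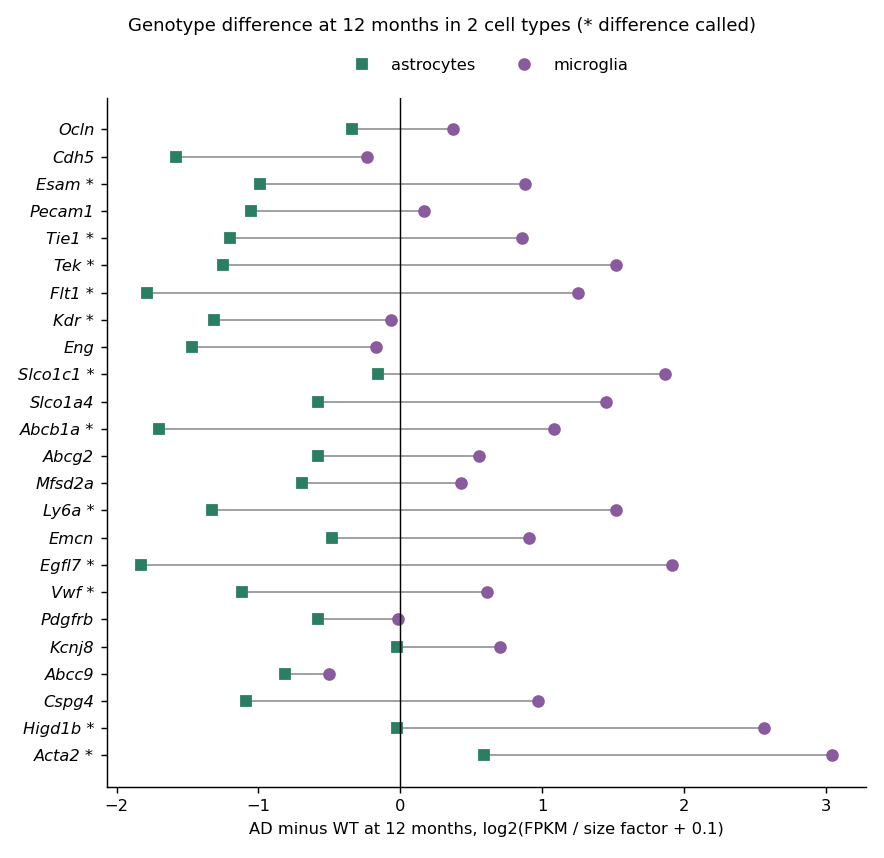
limma log2 difference of AD over WT at 12 months for 24 members; squares are astrocytes, circles are microglia, grey lines join the values of a gene, and a star marks a member whose effects differed between the cell types after adjustment over all genes. Flt1 is at −1.78 in astrocytes and at 1.25 in microglia.

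**Figure D5:**
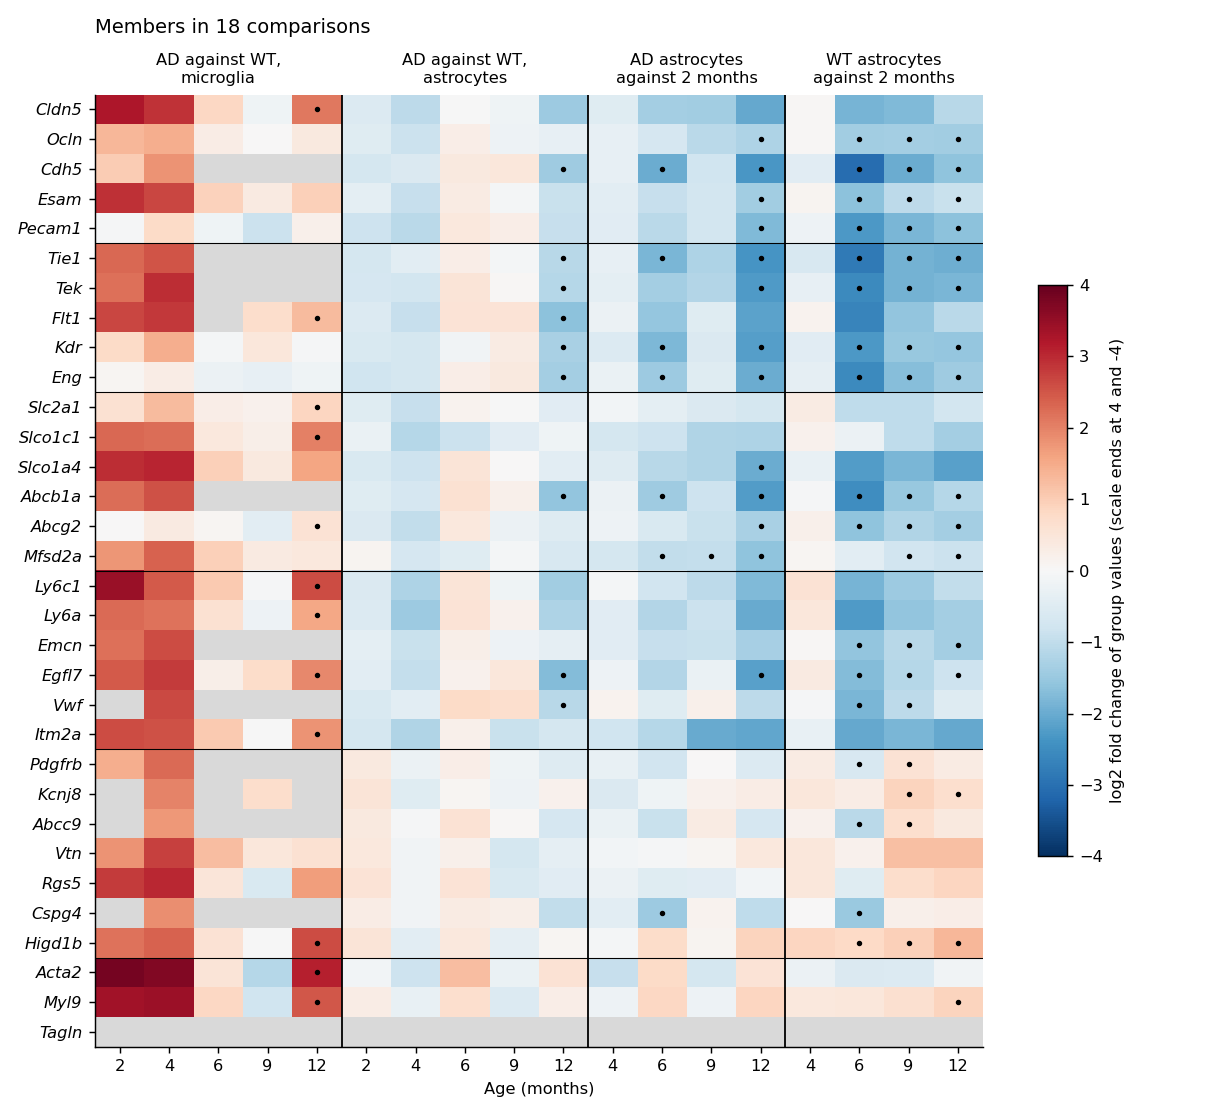
log2 fold change of group means for 32 members (rows, by role) in 18 comparisons (columns); dots mark limma calls, grey cells were not kept, and the colour scale ends at 4 and −4. The endothelial rows are negative at 6, 9 and 12 months against 2 in WT astrocytes, with medians of −1.96, −1.52 and −1.35.

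Across the 30 astrocyte libraries the endothelial genes varied as a block. The median Pearson correlation of log2 values was 0.926 between pairs of 14 endothelial genes, 0.407 between pairs of 6 mural genes and 0.119 between endothelial and mural genes. Across the 28 microglia libraries it was 0.832 between 19 endothelial genes, 0.869 between 6 mural genes and 0.861 between the kinds. The mural genes differ between these sets, being Pdgfrb, Kcnj8, Abcc9, Cspg4, Higd1b and Acta2 in astrocyte libraries and Pdgfrb, Vtn, Rgs5, Higd1b, Acta2 and Myl9 in microglia libraries. In astrocyte libraries the mural genes were split: the median correlation with the 14 endothelial genes was 0.645 for Cspg4, 0.540 for Pdgfrb and 0.531 for Abcc9, and −0.015 for Kcnj8, −0.087 for Acta2 and −0.27 for Higd1b. In microglia libraries it was 0.808 to 0.897 for each of the 6. AD 2-month library 1, AD 4-month library 1 and WT 4-month library 3 of microglia stood far above the others, with endothelial sums of 548, 1566 and 360 FPKM. The microglia correlations include these libraries and were not computed without them. The points share libraries, scaling and age groups, so the correlations are a description and carry no test.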

How the data were processed

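RNA was measured by full-length amplification and paired-end sequencing of microglia and astrocytes sorted from AD and WT brains at 5 ages. By the methods, the authors aligned reads with HISAT2, counted fragments per gene with featureCounts and deposited FPKM. Their processing notes in the labels name Bowtie 0.12.2 and the build mm8, and gene lengths that gave whole fragments were those of GENCODE M21. The deposited FPKM are group means, with 20 columns and 35999 genes, and 0 columns were left out.

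Single libraries were recovered from the digits of the means, a step chosen after the values were seen. A mean was resolved where whole fragment numbers, divided by gene length and library size, gave all its digits. In groups of 3 libraries the fragment numbers were capped at 8000 per library. Groups of 2 had no cap, and their means above 8000 were not part of the checks that follow. Tested on simulated data, 100% of means with the lowest fragment numbers and 99.85% of those with the highest were recovered, and 0 were wrong. Of the real means, from low to high fragment numbers, 93.46% to 77.87% passed in groups of 3 libraries and 93.38% to 74.59% in groups of 2, against at most 1.66% when the length was shifted by 1 base. The lengths found were 1414 bases for Cldn5 (annotation 1416) and 1781 for Acta2 (annotation 2196).

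Groups were taken from the labels. Fold changes were taken after median-ratio scaling of the 10 microglia or the 10 astrocyte columns, with a pseudocount of 0.1, a minimum of 0.5 FPKM in a group compared and a log2 threshold of 0.5. The pseudocount understates the change of low genes. limma 3.58.1 (R 4.3.3) was run on log2 library values, with 2 groups per fit, a mean-variance trend and Benjamini-Hochberg adjustment over all genes, and a call needed an adjusted p under 0.05 and a log2 difference past 0.5. Tested on simulated data, it found 59 of 100 altered genes at log2 1 and 100 of 100 of log2 2 in 13187 astrocyte genes at 2 months, with 13 of 12987 unchanged genes called, and 38 and 98 of 100 in 12212 microglia genes, with 17 of 12012. The simulation gave all genes the same small spread between libraries and altered only genes above a minimum level. The members were far more uneven in AD 2-month microglia, where library 1 was a median of 10.75 times the next. These rates therefore do not apply to the members there. In all, 26 comparisons were fitted. The fragments behind a value bound its precision, and intervals of counting error are not given because replicate error was used. Other computing was in Python 3.11.15 with NumPy 2.4.6, pandas 2.3.3, SciPy 1.17.1 and Matplotlib 3.10.9.

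All 32 members are named, and other genes only by list. The members and all lists were chosen with earlier results of these data known. Alternatives were other scalings, pseudocounts and filters, library medians, and leaving out each library.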

Additional observations from a re-analysis of the deposited data

Results flagged for a closer look

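In 12 members the difference of AD from WT at 12 months was not the same in the 2 cell sorts by limma, on the log2 scale as astrocytes minus microglia. Among receptors the value was −2.06 for Tie1, −2.77 for Tek, −3.04 for Flt1 and −1.25 for Kdr. It was −1.87 for the junction gene Esam, −2.03 for Slco1c1 and −2.78 for Abcb1a among transporters, and −2.85 for Ly6a, −3.74 for Egfl7 and −1.73 for Vwf among surface and secreted genes. The mural genes among them were Higd1b, at −2.58, and Acta2, at −2.45. The smallest adjusted p in limma was 0.0032, for Egfl7. Tie1, Tek, Abcb1a and Vwf were under the minimum of 0.5 FPKM in both microglia groups at 12 months, so their differences are uncertain. The count of 12 was 7 to 11 when any 1 library of the groups of 3 was left out. The WT 12-month microglia group held 2 libraries, so a fit without 1 of them cannot show whether the calls hold.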

How the results depend on the processing

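Of the medians and counts recomputed, 54 held with no size factor and 1 crossed the threshold; 51 held and 3 did not with quantile normalization, 51 and 4 with a pseudocount of 1, 52 and 2 with no filter, 51 and 3 with scaling on genes of 1 FPKM or more, and 31 and 5 as medians of library values. When 1 library was left out 305 held, 39 counts moved, 3 medians reversed, 14 weakened below and 14 passed the threshold. In AD against WT microglia at 6 months several settings crossed it. The endothelial median of 0.42 was 0.67 with no filter, 0.50 with scaling on genes of 1 FPKM or more and 0.65 from library values, and the mural median of 0.57 was 0.48 with quantile normalization, 0.42 with a pseudocount of 1 and 0.44 from library values. With a pseudocount of 1 the members past the fold threshold were 6 at 6 months and 3 at 9 months in microglia and 6 at 6 months in astrocytes, and with no filter 18 at 6 months in microglia. In AD astrocytes at 4 against 2 months 4 passed with quantile normalization and 4 with scaling on genes of 1 FPKM or more. The shares of all genes past the threshold under these settings are not given. These counts show only how the members moved with the setting. The mural median at 6 against 2 months was −0.57 from library values in AD astrocytes. In WT astrocytes it was −0.54 with no size factor, −0.88 with quantile normalization, −0.63 with scaling on genes of 1 FPKM or more and −0.54 from library values, and at 12 months 0.41 from library values. The cause was not tested.

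Leaving out 1 library at a time, the endothelial and mural medians of AD against WT microglia were 0.11 to 1.82 and 0.33 to 2.03 at 2 months, −1.34 to 3.84 and −1.30 to 3.89 at 4 months, and 0.20 to 0.76 and −0.045 to 1.10 at 6 months. At 12 months they were 0.9986 to 1.2045 and 2.0208 to 2.7971. In AD against WT astrocytes the endothelial median was −0.92 to −0.44 at 2 months and 0.14 to 0.57 at 6 months, the mural median 0.0033 to 0.56 at 6 months and −0.62 to 0.063 at 12 months, and limma calls 0 to 2 and 0 to 9. Against 2 months, AD astrocytes gave mural medians of −0.94 to −0.39 at 6 months and −0.55 to 0.13 at 12 months, an endothelial median of −0.95 to −0.37 at 9 months, and 0 to 11, 0 to 1 and 7 to 11 limma calls at 6, 9 and 12 months. WT astrocytes gave mural medians of −0.71 to −0.34, 0.47 to 0.71 and 0.35 to 0.47 at 6, 9 and 12 months, with 10 to 16 limma calls at 9 months. In AD microglia limma calls were 0 to 2, 0 to 3 and 1 to 7 at 6, 9 and 12 months, and in WT microglia 0 to 6 at 6 months. The count of members that differed between the sorts was 7 to 11 without 1 library of a group of 3. The shares of all genes called in the refits are not given, so the counts cannot be set against other genes. Where 1 library remained of 2, it was assumed to vary like the other group. These medians use recovered members alone. No paired analysis was possible because the recovered libraries carry no replicate number.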
